A study of Mus musculus with 2 samples.

Results

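Sites called as N6-methyladenosine (m6A) were taken from the site lists of newborn mouse cerebellum and cerebrum. Those whose adenosine is followed by T and then C in the reference are called ATC sites here, with the listed adenosine as their A. Both lists were made by GLORI, in which glyoxal and nitrite turn unmethylated adenosine into inosine, which is read as G, while m6A is still read as A. A site belonged to the class when the GRCm38 sequence on its own strand had A at the site, T at +1 and C at +2, with any bases before it. The class held 15426 of the 219409 sites in the union of both lists. The cerebellum list held 4598 of them among 79355 sites, and the cerebrum list 11727 among 188295. These were C57 reference letters, and 510 sites of the union had no adenosine in the reference on their strand.

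Each list came from 1 library of poly(A)+ RNA. The cerebellum and the cerebrum library were both made from a female F1r mouse at P0, the offspring of a C57 mother and a PWK father. Both libraries were GLORI-treated, and no untreated library was used here, so methylation of single listed adenosines was not checked. With 1 library per tissue there was no replicate check, so no test was run and no p-value is given. Shares are given with 95% Wilson intervals, which cover counting error only and treat sites as independent, although neighbouring sites share reads. The lists hold positions without a methylation rate or a read count, so depth is unknown, and an adenosine that is not listed may be unmethylated, below the study's cutoffs or poorly covered.

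m6A is written co-transcriptionally on mRNA by the METTL3-METTL14 complex, which prefers the consensus DRACH, where D is A, G or T, R is A or G, and H is A, C or T. The mark is known to concentrate in long internal exons and in 3′ UTRs near stop codons, and it influences RNA decay, splicing and translation through reader proteins. A DRACH adenosine is followed by C, so none of the ATC sites lies in this consensus. Poly(A)+ RNA of developing brain also holds intronic sequence, much of it from very long neuronal genes.

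The sequences that show the recurring arrangement of the class come first. In them the ATC of a listed site is in capitals, all other bases are in lower case, and positions are GRCm38 (mm10) windows printed 5′ to 3′ on the strand given. The following pairs were listed at both copies in both libraries, lay outside soft-masked repeats, and come from introns of host genes with many ATC sites. The pairs were chosen after their values were seen.
Rbfox1, intron 3 of 14, chr16:6853769-6853797, plus strand: agctctccccATCcctATCgatagtctag
Ptprd, intron 4 of 9, chr4:77523811-77523839, minus strand: cttctccccaATCccaATCtgctcttatt
Nrxn3, intron 4 of 19, chr12:89191895-89191923, plus strand: ctctaccccaATCtccATCctcctctcat
Nrg3, intron 1 of 9, chr14:39050384-39050412, minus strand: ttcatgctccATCtctATCacagcttcca
Fgf14, intron 1 of 4, chr14:124456126-124456154, minus strand: ctctcatcctATCtctATCtccccatgtt
Dab1, intron 1 of 3, chr4:103710288-103710316, plus strand: ctccatcctcATCcatATCaaccctctga
In each of them the copies stood 6 nt apart, with 3 bases between them, and most bases around them were C or T.

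Pairs of the same form were listed in coding sequence. The 4 shown here were also listed at both copies in both libraries, and in each the A was at codon position 1, so that both copies were isoleucine codons of one reading frame.
Slc35f1, coding sequence, chr10:53108171-53108199, plus strand: tttcttcaccATCctcATCgggctggtgc
Pcsk2, coding sequence, chr2:143793178-143793206, plus strand: catgtggaccATCtccATCaactcagcca
Fto, coding sequence, chr8:91409378-91409406, plus strand: agtgtctcgcATCctcATCggggacccag
Klhl24, coding sequence, chr16:20120148-20120176, plus strand: tcgtgcagctATCcctATCgccaagaggt
Fto, which encodes an RNA demethylase that removes m6A, thus carried such a pair in its own coding sequence, and Pcsk2 encodes a prohormone convertase.

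The longest chains, in which several listed ATC sites followed one another at 6 nt, lay mostly or wholly in soft-masked sequence. The windows below hold the 2 chains of 5 sites and 1 of the 3 windows of 50 nt that held 6 sites, the highest number found. In the lower-case stretches of the Dock4 and Astn1 windows the same trinucleotide also stands without being listed.
Dock4, intron 1 of 52, chr12:40543141-40543179, plus strand: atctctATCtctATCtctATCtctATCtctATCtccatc
Atp2c1, intron 2 of 27, chr9:105483789-105483827, minus strand: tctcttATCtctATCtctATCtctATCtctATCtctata
Astn1, intron 1 of 22, chr1:158385711-158385761, plus strand: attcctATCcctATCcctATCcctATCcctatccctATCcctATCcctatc
In the Dock4 chain all 5 sites were in the cerebellum list and 4 of them in the cerebrum list. The Atp2c1 chain had no site in common, with 2 of its sites in the cerebellum list and 3 in the cerebrum list. Of the 6 sites in the Astn1 window, 6 were in the cerebrum list and 5 in the cerebellum list. Astn1 encodes astrotactin, an adhesion protein of migrating neurons.

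ATC was the most frequent trinucleotide among sites outside DRACH in both libraries. It made up 15.3% of such sites in the cerebellum (interval 14.9 to 15.7, 4598 of 30081) and 11.7% in the cerebrum (interval 11.5 to 11.9, 11727 of 100279). ATT came next, with 12.7% for cerebellum and 11.5% for cerebrum. Of all listed sites, DRACH included, ATC sites made up 5.79% for cerebellum and 6.23% for cerebrum. Adenosines outside DRACH that were not listed, on the same strand and within 50 nt of a site outside DRACH, were ATC in 6.12% of cases for cerebellum and 5.75% for cerebrum. The share among sites was therefore 2.50 times that of unlisted neighbours in the cerebellum and 2.03 times in the cerebrum. Across the 19 autosomes the share among sites outside DRACH lay between 13.0% and 17.9% in the cerebellum, and between 10.1% and 13.0% in the cerebrum. Of the members, 2 lay on the Y chromosome, each in 1 library, although the labels call both samples female, and 2 lay on the mitochondrial chromosome.

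ATC sites were paired at a single distance. In the cerebellum 668 pairs of ATC sites stood 6 nt apart, against 135 pairs at the other 29 distances from 1 to 30 nt together. In the cerebrum the numbers were 1025 and 269. The distances next in number were multiples of 3, with 48 cerebellum and 71 cerebrum pairs at 9 nt, 18 and 61 pairs at 3 nt, and 24 and 26 pairs at 12 nt. Per 1000 sites of the class there were 145 pairs at 6 nt for cerebellum and 87.4 for cerebrum. Other sites outside DRACH had 7.69 and 6.21 pairs per 1000 sites at that distance, and DRACH sites had 9.19 and 9.35. Sites with T then A, G or T, a part of the other sites outside DRACH, also peaked at 6 nt, with 11.0 and 6.90 pairs per 1000 sites. The peak was thus present in both libraries and not particular to ATC sites, but it was far higher in them than in these classes.

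**Figure D1:**
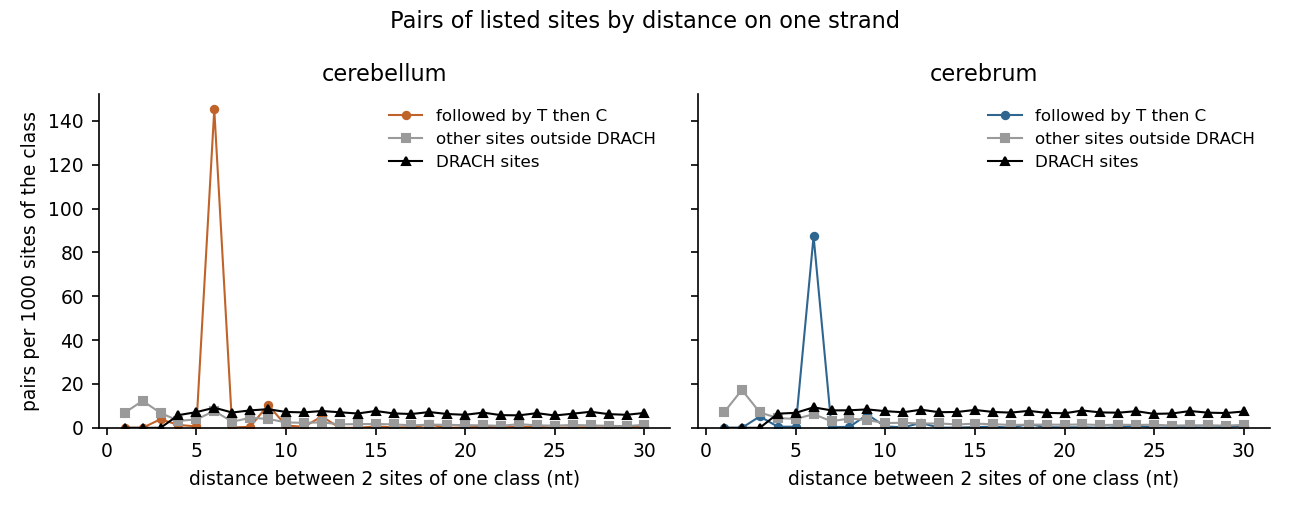
Pairs of listed sites of one class on one strand, per 1000 sites of the class (y axis), by the distance between them in nt (x axis), for the cerebellum library (left) and the cerebrum library (right). At 6 nt the ATC sites (coloured) reach 145 and 87.4 pairs per 1000 sites, while other sites outside DRACH (grey) and DRACH sites (black) stay at or below 9.35 there.

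A listed ATC site 6 nt away was found for 28.7% of ATC sites in the cerebellum (interval 27.4 to 30.01, 1319 of 4598) and for 17.4% in the cerebrum (interval 16.7 to 18.1, 2037 of 11727). The cerebellum share was the higher one on 19 of 19 autosomes, where it ran from 20.5% to 35.7%, against 13.5% to 22.1% in the cerebrum. Autosomes of 1 library share its depth and preparation, so they are not replicates of a tissue difference. Of all sites of the union, whatever their sequence, 4.38% had another listed site 6 nt away. Among ATC sites that share was 27.0% (interval 26.3 to 27.7), among other sites outside DRACH 2.79% and among DRACH sites 2.53%. For sites with T then A, G or T it was 5.54%. The union held 1596 pairs of ATC sites 6 nt apart, made of 3156 sites. Of these pairs 9.71% had both copies in both libraries, 32.1% had both copies in the cerebellum and at most 1 in the cerebrum, and 54.5% had both in the cerebrum and at most 1 in the cerebellum. For the remaining 3.63% of pairs each library listed 1 copy. Most runs were single pairs, with 1534 of 1560 chains holding 2 sites, 18 holding 3, 6 holding 4 and 2 holding 5.

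The arrangement was a property of the underlying sequence as well as of the calls. ATC stood 6 nt upstream of 20.1% of ATC sites and 6 nt downstream of 19.5%. At the other positions within 28 nt the share had a median of 1.90% and reached at most 4.99%, at -9. Unlisted ATC adenosines 20 to 200 nt from an ATC site had a copy 6 nt upstream in 2.53% of cases and 6 nt downstream in 2.54%, and their highest share was 6.33%, at -4. In all, 37.1% of ATC sites had ATC 6 nt up- or downstream (interval 36.4 to 37.9, 5726 of 15426), against 4.42% of the unlisted ATC adenosines (3050 of 69022), a ratio of 8.40. These unlisted adenosines lie at least 20 nt from any ATC site, so none can have a listed copy at 6 nt, and without the members that have one the share was 20.9%. Unlisted ATC adenosines within 50 nt, which include the unlisted copies themselves, had 17.8%, a ratio of 2.08. Outside soft-masked sequence the shares were 35.8% and 3.43%, a ratio of 10.4. Members in introns (41.4% against 4.70%, a ratio of 8.80) and members in coding exons (33.5% against 3.23%, a ratio of 10.4) both showed it. In coding sequence the share was 38.7%, and in 3′ UTRs it was 27.2%.

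**Figure D2:**
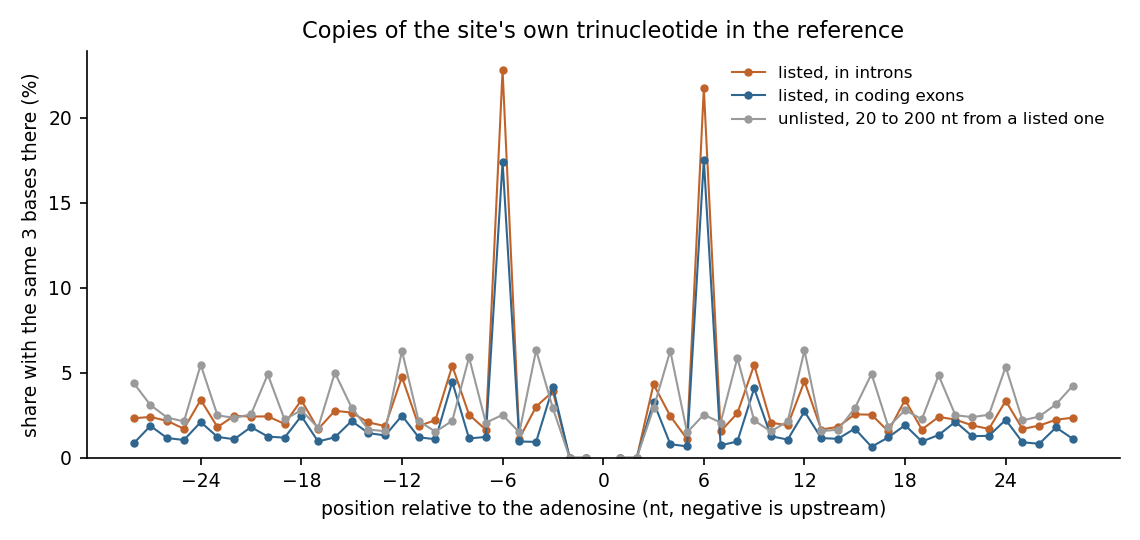
Share of adenosines (y axis, %) that have the same 3 bases, ATC, at each position from 28 nt upstream to 28 nt downstream (x axis), for ATC sites in introns (orange), ATC sites in coding exons (blue) and unlisted ATC adenosines 20 to 200 nt from an ATC site (grey). The listed sites peak at 6 nt on both sides, at 22.8% and 21.7% in introns and 17.4% and 17.5% in coding exons, where the unlisted adenosines show 2.53% and 2.54%.

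The copy itself was listed about as often as not. Of ATC sites with ATC 6 nt upstream, that copy was listed in 51.5% of cases (interval 49.7 to 53.2, 1596 of 3101), and of those with ATC 6 nt downstream in 53.2% (interval 51.4 to 55.0, 1596 of 3001). Introns (51.5% upstream, 54.0% downstream) and coding exons (52.9% and 52.6%) gave similar shares.

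Copies that matched only in AT were also more frequent at 6 nt, and more so on the upstream side. Among ATC sites with no ATC on either side, ATT stood 6 nt upstream in 9.66% and downstream in 5.65%, against 2.38% and 2.30% of the corresponding unlisted adenosines. ATA stood upstream in 8.09% and downstream in 4.15%, against 1.94% and 1.75%. ATG stood upstream in 3.67% and downstream in 2.98%, against 1.64% and 1.73%. The same side preference appeared among the listed sites. Of 3324 pairs of sites outside DRACH that stood 6 nt apart in the union, 84.8% had AT at both copies and 48.0% had ATC at both. Pairs with another AT upstream and ATC downstream numbered 673, and pairs in the opposite order 279. ATC was thus more often the downstream member of a mixed pair. Counting any AT, 57.4% of ATC sites had one 6 nt up- or downstream, against 15.2% of the unlisted ATC adenosines. Sites with T then A, G or T had an AT there in 29.1% of cases.

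The bases around ATC sites differed from those around unlisted ATC adenosines 20 to 200 nt away, but hardly from those around unlisted ones within 50 nt. Over the positions -15 to -1 and +3 to +15, C or T made up 62.5% of bases and G 13.5%, against 56.1% and 17.1% around the unlisted ATC adenosines 20 to 200 nt away. C stood at -1 in 41.4% of ATC sites and 33.8% of the unlisted ones, and both bases before the site were pyrimidines in 48.1% and 37.7%. Around unlisted ATC adenosines within 50 nt, C or T made up 61.9% and G 12.9% of bases, C stood at -1 in 40.1%, and both bases before were pyrimidines in 49.6%. The pyrimidine content was thus shared with the immediate neighbourhood of the sites. The most frequent contexts of 5 bases, with the site in the middle, were CCATC with 2309 sites, TCATC with 2243, CTATC with 1483 and TTATC with 1383. TCATC was 1.49 times and CCATC 1.31 times as frequent as among the unlisted adenosines 20 to 200 nt away, and ATATC 0.534 times. Against those within 50 nt the values were 0.943, 1.05 and 0.571. ATC sites with a copy at 6 nt had C or T at 66.9% of the surrounding positions and G at 11.2%. Those without any AT at 6 nt had 59.9% and 15.6%.

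The 3 bases between the copies of a listed pair were all pyrimidines in 58.1% of pairs (interval 55.6 to 60.5, 927 of 1596). Unlisted ATC adenosines with a copy 6 nt downstream had 3 pyrimidines there in 24.8% (interval 22.8 to 26.9, 435 of 1754). Outside soft-masked sequence the shares were 56.4% and 20.1%. The most frequent spacers were TCT in 9.90% of pairs, CTC in 9.40%, TCC in 8.21% and CTT in 8.15%. TCT was as frequent between unlisted copies (9.81%), whereas CTC and CTT stood between only 0.912% and 0.741% of them. ATC as a spacer, which makes a run of adjacent ATC units, was found in 4.64% of listed pairs and 13.4% of unlisted ones. G at +3 of the upstream copy, where it would form CpG, was found in 0.877% of listed pairs and 4.05% of unlisted ones. At +3 of the downstream copy the order was the opposite, with 6.58% and 3.36%, and over all ATC sites G stood at +3 in 4.09%, against 3.85% of the unlisted ones.

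Both adapters ligated during library construction contain ATC, so the letters around it were compared. With 4 letters before and 4 after, 0 of 15426 ATC sites matched the 3′ adapter and 6 matched the 5′ adapter. With A and G read as one letter, as after deamination, 0.7196% and 0.797% matched, against 1.47% and 0.580% of the unlisted ATC adenosines. The 5′ adapter intervals did not overlap (0.669 to 0.950 and 0.526 to 0.639). With 2 letters before and 2 after, 0.713% of ATC sites and 0.474% of the unlisted ones matched the 5′ adapter. With A and G as one letter these shares were 4.998% and 3.745%, whereas for the 3′ adapter they were 2.36% and 4.35%. A part of the 5′ adapter in the calls was not tested.

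ATC sites lay in introns more often than the other classes of listed sites. The exon of any annotated transcript was given precedence over introns. Of the members 9067 were intronic, 58.8% (interval 58.0 to 59.6), while 25.9% of all listed sites were. By library, 61.1% of cerebellum members and 56.9% of cerebrum members were. Sites with T then A, G or T were intronic in 48.4%, all other sites outside DRACH together in 38.4% and DRACH sites in 7.14%. The unlisted ATC adenosines 20 to 200 nt away, which share the neighbourhood of the members, were intronic in 67.7%. Coding sequence held 15.6% of ATC sites (2404) and 7.95% of the unlisted ones, and 3′ UTRs held 11.9% (1830) and 10.05%. DRACH sites had 34.5% in coding sequence and 47.6% in 3′ UTRs. Outside annotated genes lay 3.48% of ATC sites. Soft-masked sequence held 20.3% of ATC sites, 20.7% of other sites outside DRACH and 9.04% of DRACH sites, and 66.5% of the 376 ATC sites that had ATC 6 nt away on both sides.

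**Figure D3:**
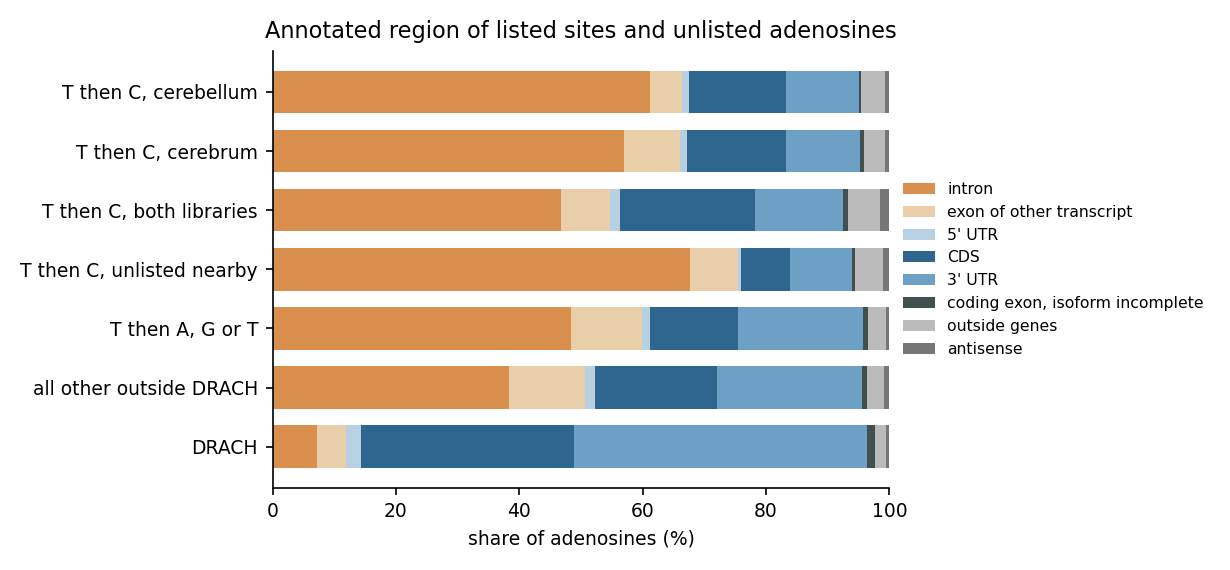
Share of adenosines (x axis, %) in each annotated region, as stacked bars, for ATC sites in the cerebellum, in the cerebrum and in both libraries, for unlisted ATC adenosines 20 to 200 nt from them, and for the other classes of the union. Introns make up 61.1% and 56.9% of ATC sites in the libraries, 46.8% of those listed in both, and 7.14% of DRACH sites.

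Within introns, ATC sites lay far from splice sites and in very long introns. The median distance was 21178 nt to the nearest splice donor upstream and 41178 nt to the nearest acceptor downstream, and 0.849% and 0.882% of the sites lay within 100 nt of them. The median intron was 100553 nt long, 82.6% of the sites lay in introns of at least 10 kb, and 32.3% lay in the first intron. Other intronic sites outside DRACH were placed much the same way, with medians of 20193.5 nt and 41478 nt, a median intron of 105224 nt and 31.4% in the first intron. Host genes of at least 200 kb held 69.0% of the intronic ATC sites and 68.3% of the other intronic sites outside DRACH. Location in an intron thus did not set ATC sites apart from other sites outside DRACH, although the share that was intronic did.

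In coding sequence the A of an ATC site was at codon position 1 in 57.1% of cases (interval 55.1 to 59.1, 1373 of 2404), so that the trinucleotide was an isoleucine codon. The unlisted ATC adenosines 20 to 200 nt away were there in 52.1% (interval 50.8 to 53.4), and those within 50 nt in 56.5% (interval 54.8 to 58.2), which overlaps the interval of the sites. Among ATC sites with a listed ATC site 6 nt away, 76.6% were at codon position 1 (interval 72.8 to 80.1, 387 of 505). Among members without any AT at 6 nt the share was 48.7% (interval 45.7 to 51.6). The few unlisted adenosines in coding sequence that had a copy at 6 nt were at codon position 1 in 62.4% (interval 55.5 to 68.9, 123 of 197).

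Few ATC sites were listed in both libraries. Of the union 899 were, 5.83% (interval 5.47 to 6.21), against 22% of all listed sites, 41.0% of DRACH sites, 6.98% of other sites outside DRACH and 4.85% of the sites with T then A, G or T among the latter. The share was below that of other sites outside DRACH on 16 of 19 autosomes. Among intronic sites the order was the opposite. There 4.64% of ATC sites (421 of 9067) and 0.743% of other sites outside DRACH (304 of 40901) were in both lists. Seen from the smaller list, 19.6% of the cerebellum ATC sites were also listed in the cerebrum, compared with 29.2% of other sites outside DRACH, 20.8% of sites with T then A, G or T and 81.0% of DRACH sites. A low share was thus not particular to ATC sites. Of the cerebrum ATC sites 7.67% were listed in the cerebellum.

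Sharing between the libraries was higher for ATC sites with a copy at 6 nt, mainly where that copy was itself listed. Of ATC sites with ATC 6 nt away in the sequence, 10.4% were in both lists (interval 9.68 to 11.3, 598 of 5726). Of those with another AT there the share was 3.32%, and of those with no AT there 3.001% (interval 2.61 to 3.44, 197 of 6565). The share with the copy was the higher one on 19 of 19 autosomes. Outside soft-masked sequence the values were 9.88% and 2.82%. Members with a copy at 6 nt made up 66.5% of the ATC sites in both lists, compared with 37.1% of all ATC sites.

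The shares were also compared within introns and within coding exons. Intronic ATC sites with a copy at 6 nt were in both lists in 9.12% of cases (interval 8.24 to 10.1, 342 of 3752), while those with no AT there were in 0.816% (interval 0.561 to 1.18, 27 of 3310). Other intronic sites outside DRACH stood at 0.743% (interval 0.665 to 0.831, 304 of 40901), and intronic DRACH sites at 11.1% (interval 10.3 to 11.8). Of the cerebellum list, 24.0% of intronic members with a copy (342 of 1427), 3.34% of those with no AT there and 39.3% of intronic DRACH sites (769 of 1959) were also in the cerebrum list. With either denominator the intronic members with a copy lay between those with no AT there and intronic DRACH sites. In coding exons the shares were 13.7% with a copy (205 of 1500) and 4.62% with no AT there (102 of 2207). Where the copy was present in the sequence but not listed in either library, 3.42% of ATC sites were shared (interval 2.79 to 4.20, 88 of 2570). That was close to the 3.001% of all members with no AT there (interval 2.61 to 3.44). Both shares pool regions that differed in sharing. Members with ATC at 6 nt were intronic in 65.5%, whether or not the copy was listed, and those with no AT there in 50.4%. Whether the closeness holds within introns or within coding exons was not tested. Of those with a listed copy 16.2% were shared (510 of 3156), where a copy counted as listed when either library held it. Coverage of each copy was not available, so its part in this was not tested.

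**Figure D4:**
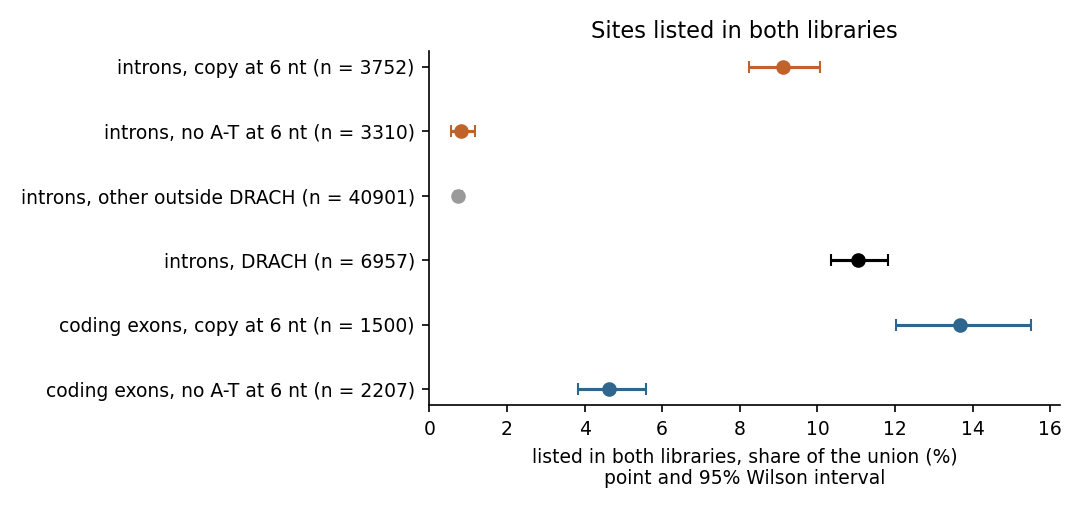
Share of sites of the union that were listed in both libraries (x axis, %, point with 95% Wilson interval), for ATC sites in introns (orange) and in coding exons (blue) with a copy of ATC 6 nt away or with no AT there, and for other sites outside DRACH (grey) and DRACH sites (black) in introns. Intronic ATC sites with a copy sit at 9.12%, below intronic DRACH sites at 11.1%, and those with no AT at 6 nt sit at 0.816%, near other intronic sites outside DRACH at 0.743%.

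ATC sites had 5030 host genes, which held 14795 of the members. The cerebellum list placed them in 1961 genes and the cerebrum list in 4436, with 1367 genes in common. The lists differed in length (79355 and 188295 sites), and the overlap was not set beside that of host genes of all listed sites. It is therefore not a result about ATC sites. In 2700 genes there was exactly 1 ATC site, in 238 genes at least 10, and in 19 genes at least 50. The 100 genes with most sites held 24.9% of the sites with a host gene. Genes of at least 200 kb held 47.3% of ATC sites, 35.1% of other sites outside DRACH and 16.8% of DRACH sites.

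The 20 genes with most ATC sites were all longer than 200 kb, from 699 kb to 2271 kb, and 98.2% of their 1403 sites were intronic. The highest number, 119, was in Lsamp, an IgLON cell adhesion protein, with 53 in the cerebellum, 70 in the cerebrum and 4 in both. Tenm2, a teneurin that binds latrophilins across the synapse, had 99, with 44 and 62 in the libraries and 7 in both. Rbfox1, a neuronal splicing regulator, had 97, with 29 and 76 and 8 in both. Further genes were Ptprd with 93, a receptor phosphatase of synaptic adhesion, and Nrxn3 with 89, a neurexin and presynaptic partner of neuroligins.

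Several of the genes encode signalling or adhesion proteins. Nrg3, a neuregulin ligand of ErbB receptors, had 73 ATC sites, of which 10 were in both libraries, and Nrg1 had 57. The alpha-catenin Ctnna2 had 69 and the protocadherin Pcdh9 68. Fgf14, an intracellular partner of voltage-gated sodium channels, had 65, with 37 in the cerebellum, 38 in the cerebrum and 10 in both. Its density of 9.30 per 100 kb was the highest of the 20 genes. Others were Auts2 with 60, Dlg2 with 59, Ntm with 58, Adgrb3 with 56, Csmd1 and Kcnip4 with 53 each, Dab1 and Nlgn1 with 50 each, and Cadm2 with 49. Dlg2 is a postsynaptic scaffold, Kcnip4 a subunit of potassium channels, Dab1 an adaptor of reelin signalling, and Ntm and Cadm2 are adhesion proteins.

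The balance between the libraries varied from gene to gene, and in some genes, but not in all, all listed sites varied with it. Auts2 had 5 cerebellum and 56 cerebrum ATC sites, beside 62 and 367 listed sites of any sequence. Dlg2 had 9 and 53, beside 54 and 398. Fgf14, with nearly equal numbers of ATC sites, had 138 and 239 listed sites of any sequence. In such bulk RNA, fewer cells that express a gene and less RNA per cell cannot be told apart, and a gene with little RNA in a tissue offers fewer adenosines that pass the read cutoff. Among sites outside DRACH of the gene, the ATC share ran from 9.37% in Cadm2 to 25.7% in Ntm over these 20 genes. The median over the 1058 genes with at least 20 such sites and an ATC site was 13.6%.

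**Figure D5:**
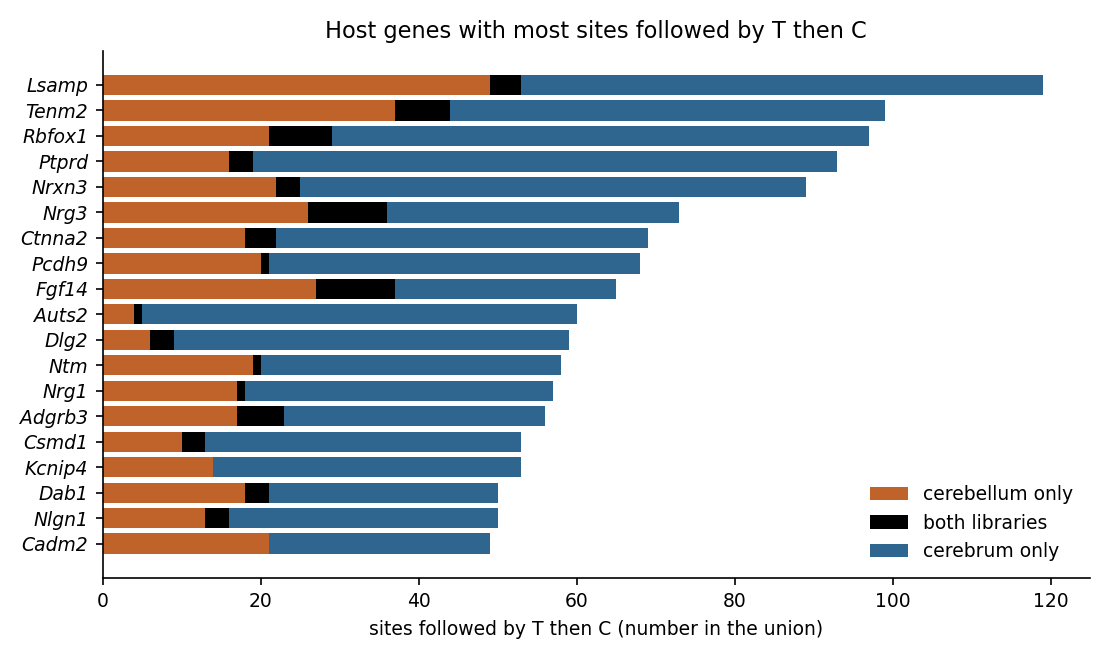
Number of ATC sites (x axis) in 19 of the 20 host genes with most, as stacked bars of sites listed in the cerebellum only (orange), in both libraries (black) and in the cerebrum only (blue). Lsamp leads with 119, and Auts2 has 5 of its 60 in the cerebellum list.

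Counted by sites in pairs 6 nt apart, Lsamp again led with 30, followed by Nrg3 with 24, Fgf14 and Tenm2 with 22 each, Rbfox1 with 20 and Nrg1 with 16. Adgrb3, an adhesion G-protein-coupled receptor, Astn1 and Dab1 had 14 each. Of the 22 ATC sites in Astn1, 8 were in both libraries and 16 had a copy at 6 nt in the sequence. ATC sites made up 33.8% of the sites outside DRACH in Astn1.

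Lists of neuronal genes by function held many of the ATC sites. Of 40 synaptic adhesion genes 36 had ATC sites, 1057 in all, led by Lsamp, Tenm2, Ptprd and Nrxn3, and these were 15.4% of the sites outside DRACH in the list (interval 14.6 to 16.3). Of 42 channels and receptors 40 had them, 466 in all and 16.8% (interval 15.5 to 18.3). Kcnd2, a potassium channel, had 45, the kainate receptor Grik2 had 39 and the metabotropic glutamate receptor Grm7 had 26. Of 32 axon guidance genes 27 had them, 289 in all and 15.4%. The netrin receptors Dcc (32) and Unc5d (25) and the Slit receptors Robo1 (31) and Robo2 (25) had most. Of 33 splicing and RNA-binding regulators 25 had them, 252 in all and 14.8%, with Celf2 (47), Celf4 (20) and Khdrbs2 (13) after Rbfox1. Every gene of these 4 lists had a listed site of any sequence. Over all sites outside DRACH of the union the share was 12.6%. In introns alone, 9067 ATC sites stood beside 40901 other sites outside DRACH. The lists were not compared with genes of like length or intronic share, so the part of intronic placement in their shares was not tested.

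In the other lists the ATC share of sites outside DRACH was 12.8% for chromatin regulators, 9.22% for the m6A machinery, 7.81% for long noncoding RNAs, 7.86% for cytosolic ribosomal proteins and 10.6% for oxidative phosphorylation. These lists also held fewer sites outside DRACH than the 4 lists above, at most 1032. For listed sites of any sequence this did not hold throughout. Chromatin regulators had a median of 30.5 per gene in the cerebellum and 67 in the cerebrum, beside 9 and 22 for the splicing and RNA-binding regulators. Of 26 chromatin regulators 25 had ATC sites, 132 in all. Auts2 held 60 of them and 330 of the 1032 sites outside DRACH in the list, so the share of the list rests largely on this gene. The histone methyltransferase genes Kmt2c and Setd2 had 6 each and Nsd1 had 5. Of 16 genes of the m6A machinery 10 had them, 20 in all. Fto had 5, the helicase and reader Ythdc2 had 4, and Cbll1, of the writer complex, and Ythdc1, a nuclear reader, had 2 each. Of 14 long noncoding RNAs 8 had them, with 10 each in Rmst and Snhg14 and 4 each in Kcnq1ot1 and Rian. Cytosolic ribosomal protein genes had 11 ATC sites in 9 of 83 genes, with 3 in Rpl10, and genes of oxidative phosphorylation had 17 in 16 of 90 genes, with at most 2 in a gene. Of these genes 60 of the 83 and 63 of the 90 had a listed site of any sequence.

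The tissue labels were checked on listed sites of any sequence. Of 13 forebrain genes all 13 had listed sites in the cerebrum, 366 in all, and 4 had sites in the cerebellum, 34 in all. Of 12 hindbrain genes 7 had listed sites in the cerebellum, and 5 had some in the cerebrum, with 62 and 60 sites. ATC sites in the forebrain genes numbered 13, all in the cerebrum, among them Dlx6os1 with 3, and Bcl11b and Lhx2 with 2 each, and the hindbrain genes had 1, in Zic1. Of the markers for other cell types, all 6 genes of the oligodendrocyte lineage had listed sites, 37 for cerebellum and 59 for cerebrum. The endothelial, microglial, choroid plexus and erythroid lists held fewer, at most 13 for cerebellum and 30 for cerebrum. ATC sites were 4 of the 15 sites outside DRACH in endothelial genes (Flt1 and Kdr with 2 each), 2 of 7 in microglial genes (P2ry12 and Tmem119) and 2 of 30 in genes of the oligodendrocyte lineage (Olig1 and Olig2). There were 0 in genes of the choroid plexus and of erythroid cells, of which 2 of 4 and 1 of 5 had any listed site.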

How the data were processed

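GLORI was run by the authors on 1 cerebellum and 1 cerebrum RNA sample of a newborn hybrid mouse, with a warmer deamination step than in the published protocol. The authors mapped reads to mm10 and to a version carrying PWK bases, called sites with GLORI-tools on a GENCODE annotation, kept sites above a minimum methylation rate and read count, and joined both sets. For its high-confidence sites the paper further required overlap with m6A-seq peaks of the same tissue. That overlap was not applied to the lists used here. The files deposited hold positions and strands, with no methylation rate, read count or other measured value.

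Here the letters around each position were read from GRCm38 and regions from GENCODE M21, with complete coding transcripts before other exons and exons before introns. Unlisted ATC adenosines on the same strand, within 50 nt or 20 to 200 nt away, served as comparison. Groups came from the tissue label. Shares have 95% Wilson intervals, and no test was run. Python 3.11.15, numpy, pandas and matplotlib were used. The counting of pairs and regions was tested on simulated data.

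The members and gene lists were chosen with earlier results of these data known. Named genes were the 20 with most ATC sites, the 10 with most in pairs 6 nt apart and up to 4 with most in each list, ties by symbol. The sequences named by that rule were the longest chains and densest windows, without chromosome 18 and UTRs. The alternatives tried are described below the results. Some genes that this rule names are not reported here.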

Additional observations from a re-analysis of the deposited data

How the results depend on the processing

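Of 35 alternatives 8 left their value within its counting interval or, for a number of genes, within 1.5 times, and 27 moved it further. None turned a direction. With 1 site per 100 nt the ATC share of sites came to 6.68% for cerebellum and 7.29% for cerebrum, and ATC stood at 6 nt in 29.9% of ATC sites. Without soft-masked sequence the shares were 5.14% and 5.88%, the ratios to unlisted adenosines 2.36 and 1.97, the shares with a listed ATC site 6 nt away 25.6% and 15.8%, the share with ATC at 6 nt in the sequence 35.8% and its ratio 10.4. With unlisted adenosines within 200 nt the ratios were 2.88 and 2.27, and with unlisted ATC adenosines within 50 nt the ratio for the copy at 6 nt was 2.08. With introns before exons 68.5% and 67.4% of ATC sites were intronic, and with basic transcripts 62.9% and 60.7%. With the partner taken from the union, 31.8% and 18.8% had a listed ATC site 6 nt away. Without the sites that had such a partner, 59.0% and 55.0% were intronic, 3.17% were in both libraries, 20.9% had ATC at 6 nt and 39.8% had C at -1. Among sites in both libraries 66.5% had ATC at 6 nt and 45.9% had C at -1. The background of unlisted adenosines 20 to 200 nt away, the split by sequence at 6 nt, and the soft-masked and 1 per 100 nt settings for the copy were chosen after seeing the data. No paired analysis was possible because each tissue has 1 library. Depth is unknown, so a site listed in 1 library only cannot be told apart from one too thinly covered in the other.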
